A study of Mus musculus with 65 samples.

Results

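The cytosolic ribosomal protein genes were described in the retinas of 65 adult C57BL/6J mice, whose RNA was sequenced in bulk as poly-A libraries. The genes were chosen by their symbols: Rpl or Rps with a number and at most 1 letter, together with Rplp0, Rplp1, Rplp2 and Rpsa. Among 50686 genes in the count tables this gave 80 protein-coding genes, 49 of the large (60S) and 31 of the small (40S) subunit. Matching pseudogenes (3) and the Rps6k kinases were left out. The family and the split of the mice described below were taken up with earlier results of these data in view, among them a low count of Rpl36 after long repopulation.

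The mice fell into 16 groups. CD mice (5) received control diet. DEP2, DEP5, DEP7, DEP10, DEP14 and DEP21 mice received PLX5622, an inhibitor of the receptor CSF1R that removes microglia, in the diet for the number of days in the name. REPOP3, REPOP5, REPOP7, REPOP10, REPOP14, REPOP21 and REPOP60 mice were returned to control diet for the days in the name after 14 days of PLX5622, and REPOP60 stands for 2 months. LPSCD mice (3) received vehicle and LPS (lipopolysaccharide), and LPSREPOP mice (4) PLX5622 and LPS. The study treats LPSREPOP as repopulated retinas, while their time of repopulation is not in the labels. PLX5622 acts on CSF1R-dependent cells in the whole animal, so that cells outside the retina were exposed too. Of 12 microglial markers, among them Cx3cr1, Tmem119, P2ry12, C1qa and Csf1r, 7 were at 0 in all 3 DEP14 mice of title suffix RE. Their summed level there was 20.1 to 27.7 CPM (counts scaled to library size, with TMM factors), against 57.96 to 77.7 CPM in CD mice of that suffix. The 10 photoreceptor markers summed to 46792 to 54206 CPM in the same CD mice, as the tissue label says.

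Ribosomes are assembled from ribosomal RNA and about equal amounts of each ribosomal protein, with most of the proteins needed in 1 copy per ribosome. In mammals each protein is usually made from 1 intron-containing gene, and processed pseudogene copies are scattered over the genome. The mRNAs are known as TOP mRNAs, which start with a cytosine and a pyrimidine tract at the 5′ end, and their translation is controlled by mTORC1. In the retina, photoreceptors renew their outer segments continuously and have a high demand for protein synthesis.

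To show runs of pyrimidines near the start, a window of 30 bases around the annotated start is given for 5 members from both subunits. The windows were read from RefSeq on GRCm38.p6, with the longest run of pyrimidines (10 to 13 bases) in capitals. The start base is not marked, and the runs of Rpl28 and Rpl38 begin with T and not with C. Rpl35a lies at chr16:33056467-33056496 (plus strand), Rpl28 at chr7:4792950-4792979 (plus), Rpl38 at chr11:114668565-114668594 (plus), Rps6 at chr4:86857353-86857382 (minus) and Rps10 at chr17:27635230-27635259 (minus).
Rpl35a: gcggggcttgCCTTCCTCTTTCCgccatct
Rpl28: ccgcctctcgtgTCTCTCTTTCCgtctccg
Rpl38: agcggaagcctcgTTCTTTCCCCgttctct
Rps6: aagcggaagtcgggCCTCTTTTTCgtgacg
Rps10: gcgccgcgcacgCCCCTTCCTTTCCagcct
These 5 were picked for their runs and do not stand for all members, and TOP tracts were not counted over the family. RefSeq start windows of 300 bases were at hand for 60 of the 80 genes (72 windows). CTTTCC, searched on both strands (GGAAAG on the other), was in 36 of the 72 windows (50%), against 8725 of 32851 windows of all genes (26.6%). CCGGAAG, the core of the sites of ETS-type factors (CTTCCGG on the other strand), was in 26 of the 72 (36.1%), against 2910 of all windows (8.86%). A stretch GGAA can belong to 1 of the motifs but not to both, since the next letter differs, and a match is a description of the letters and not a bound site.

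Levels between genes were compared in FPKM (fragments scaled to transcript length and library size), which corrects for length. In the 5 CD mice the highest members were Rps15 of the small subunit, with a median of 260 FPKM (lowest 243, highest 265), and Rpl13a of the large subunit, with 252 FPKM (212 to 266). They were followed by Rplp1, a protein of the stalk that recruits elongation factors, with 200 FPKM (188 to 232), by Rpl4, which lines the exit tunnel, with 175 FPKM (171 to 181), and by Rpl8, near the peptidyl transferase center, with 162 FPKM (160 to 190). In this order Rps15 and Rpl13a overlapped in their ranges, as did Rpl13a and Rplp1 and Rpl4 and Rpl8, while Rplp1 lay above Rpl4 without overlap. At the other end were the paralogs. Rpl3l, which is known from striated muscle, and Rpl10l and Rpl39l, known from testis, were listed at a median of 0, and Rps27l reached 3.58 FPKM (2.49 to 4.30). Rpl10l had no count in 64 of the 65 mice and Rpl39l none in 61, so these 2 genes did not pass the filter on low counts (at least 1 count in 0.5 or more of the mice of a group) and 78 members were tested. The lowest of the genes other than the paralogs was Rpl39, with 10.0045 FPKM (6.22 to 14.3). Rpl21 (11.6 FPKM, 3.68 to 16.3), Rps20 (9.01 to 18.2 FPKM) and Rpl36a (13.9 to 22.9 FPKM) overlapped it. The members took 1.23% of the summed FPKM in CD and between 0.373% and 0.616% of the counts of a mouse (20444 to 49973 counts of 5106429 to 8760443 in all).

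The deposited counts and FPKM did not rank the members alike. The ratio of FPKM to CPM per kilobase in CD had a median of 0.950 over 78 members, and the 2 scales were related with a Spearman correlation of 0.612 across these genes, which share their libraries. Rpl24 stood at 0.852 CPM but at 55.6 FPKM on average, a ratio of 44.1, and Rpl13a at 11.8 CPM and 240 FPKM, a ratio of 21.4. Of the exon bases of Rpl24, 47.0% lie in another annotated gene on the same strand (Gm28037), and 35.4% of those of Rpl13a lie in Gm45713, Mir5121 and Snord33. For 41 of the 80 members more than 50% of the 50-base runs of their transcript also occur in transcripts of other annotated genes, pseudogenes included (median 51.2%, range 0 to 98.6%). How the counting treated such reads was not tested, so the count of a member such as Rpl24 or Rpl13a is uncertain as a level.

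**Figure D1:**
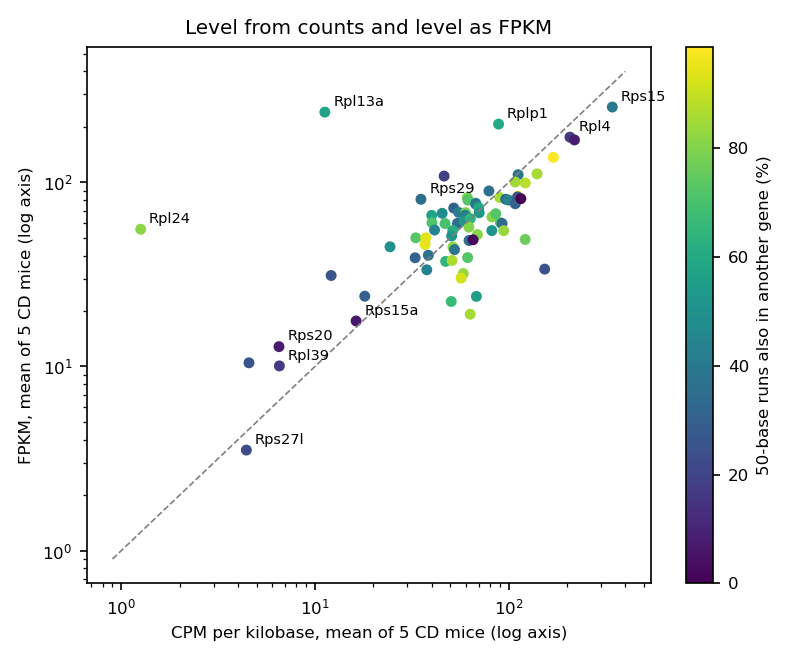
Level of each member in the 5 CD mice as CPM per kilobase (horizontal, log axis) and as FPKM (vertical, log axis), 1 point per gene, colored by the percent of 50-base runs of its transcript found in other genes. Most genes lie near a ratio of 0.950, and Rpl24 (44.1) and Rpl13a (21.4) lie far above.

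Before any comparison of groups, the mice stood apart by the suffix of their sample titles, RE (39 mice) or re (26 mice), whose meaning is not given. The mean of log2(CPM + 1) over the 78 members was 5.63 ± 0.107 (SD, n = 39) in RE mice, with a lowest of 5.44, a median of 5.61 and a highest of 5.91. In the 19 re mice without LPS it was 5.27 ± 0.0584, with a lowest of 5.12, a median of 5.27 and a highest of 5.36, so these did not overlap the RE mice. Library totals were 7572657 to 8760443 counts in RE and 5106429 to 8097293 in re mice. REPOP60, LPSCD and LPSREPOP hold re mice alone and DEP5 holds RE mice alone. Comparisons between groups were therefore made within a suffix.

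**Figure D2:**
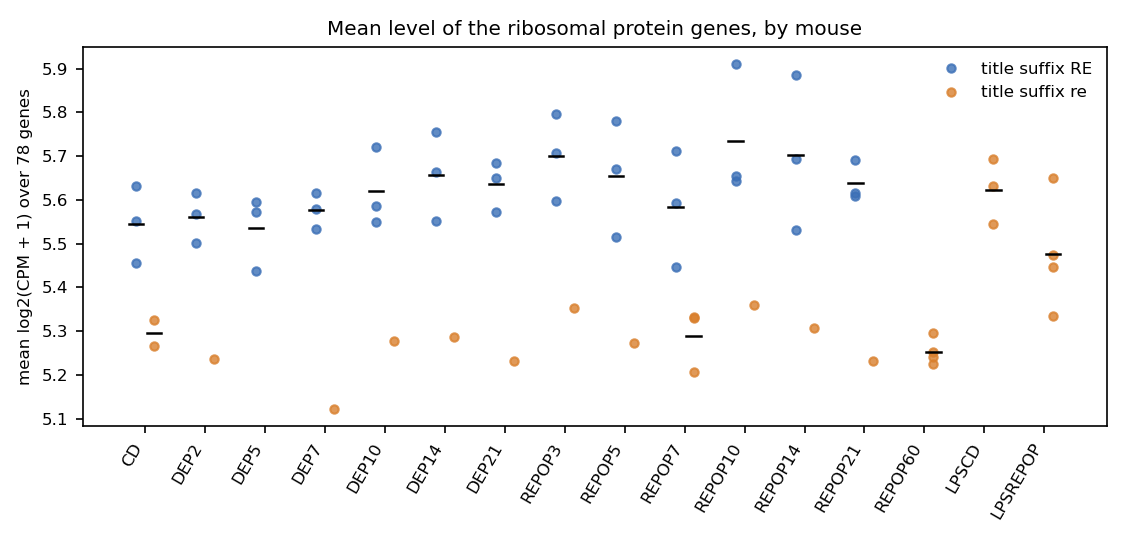
Mean log2(CPM + 1) over the 78 members for each of the 65 mice by group, with points colored by title suffix and short lines at the mean of each group and suffix. The 19 re mice without LPS lie at 5.12 to 5.36 and the 39 RE mice at 5.44 to 5.91, while the 7 re mice given LPS reach 5.33 to 5.69.

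LPSCD was compared with CD within the suffix re to ask what systemic LPS does to the retina with resident microglia. The ribosomal protein genes were higher as a group in LPSCD. All 78 members that passed the filter had a fold change above 0 with a median log2 fold change of 0.34 (range 0.01 to 0.80), while the median of all 27272 genes tested was 0. Of these members, 25 rose (13 of the large and 12 of the small subunit) and none fell, with edgeR's quasi-likelihood test at an FDR under 0.05 over all genes. Among all genes 2.43% passed in either direction and 1.38% rose. By mouse, the mean level of the members was 5.27 and 5.33 in CD and 5.54, 5.63 and 5.69 in LPSCD. All 3 LPSCD mice lay above each of the 19 re mice without LPS. In share of counts this was 0.407% and 0.416% in CD and 0.498%, 0.539% and 0.565% in LPSCD.

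The 5 called members of largest change came from both subunits. Rps20, a protein of the head of the small subunit, had 18.7 and 16.6 CPM in CD and 31.1, 29.6 and 31.5 CPM in LPSCD, a log2 fold change of 0.80 (SE 0.143, adjusted p = 0.0018 with edgeR). Rps14, on the platform of the small subunit, had 70.2 and 53.2 CPM in CD and 90.9, 88.2 and 104 CPM in LPSCD, a log2 fold change of 0.61 (SE 0.118). In both genes every LPSCD mouse was above both CD mice. Rps27, also of the small subunit, had 54.5 and 67.6 CPM in CD and 80.7, 98.6 and 98.5 CPM in LPSCD, a log2 fold change of 0.60 (SE 0.118). Rpl17, which sits at the mouth of the exit tunnel, had 40.9 and 39.8 CPM in CD and 52.7, 61.0 and 65.2 CPM in LPSCD, a log2 fold change of 0.56 (SE 0.134). Rpl8 had 191 and 177 CPM in CD and 231, 252 and 297 CPM in LPSCD, a log2 fold change of 0.50 (SE 0.10). The LPSCD values did not overlap those of CD in any of these genes, and replicate 3 was the highest LPSCD mouse in Rps20, Rps14, Rpl17 and Rpl8. The other 20 called members had log2 fold changes from 0.30 (Rpsa) to 0.49 (Rps2) with adjusted p up to 0.0443. Rps20 is an exception on the other scale, since its FPKM was 18.2 and 12.96 in CD and 14.7, 12.6 and 19.6 in LPSCD. The transcript of Rps20 used here for CPM per kilobase has 3706 bases, of which 360 are coding. Its length did not enter the deposited FPKM, and the cause of the exception was not tested.

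**Figure D3:**
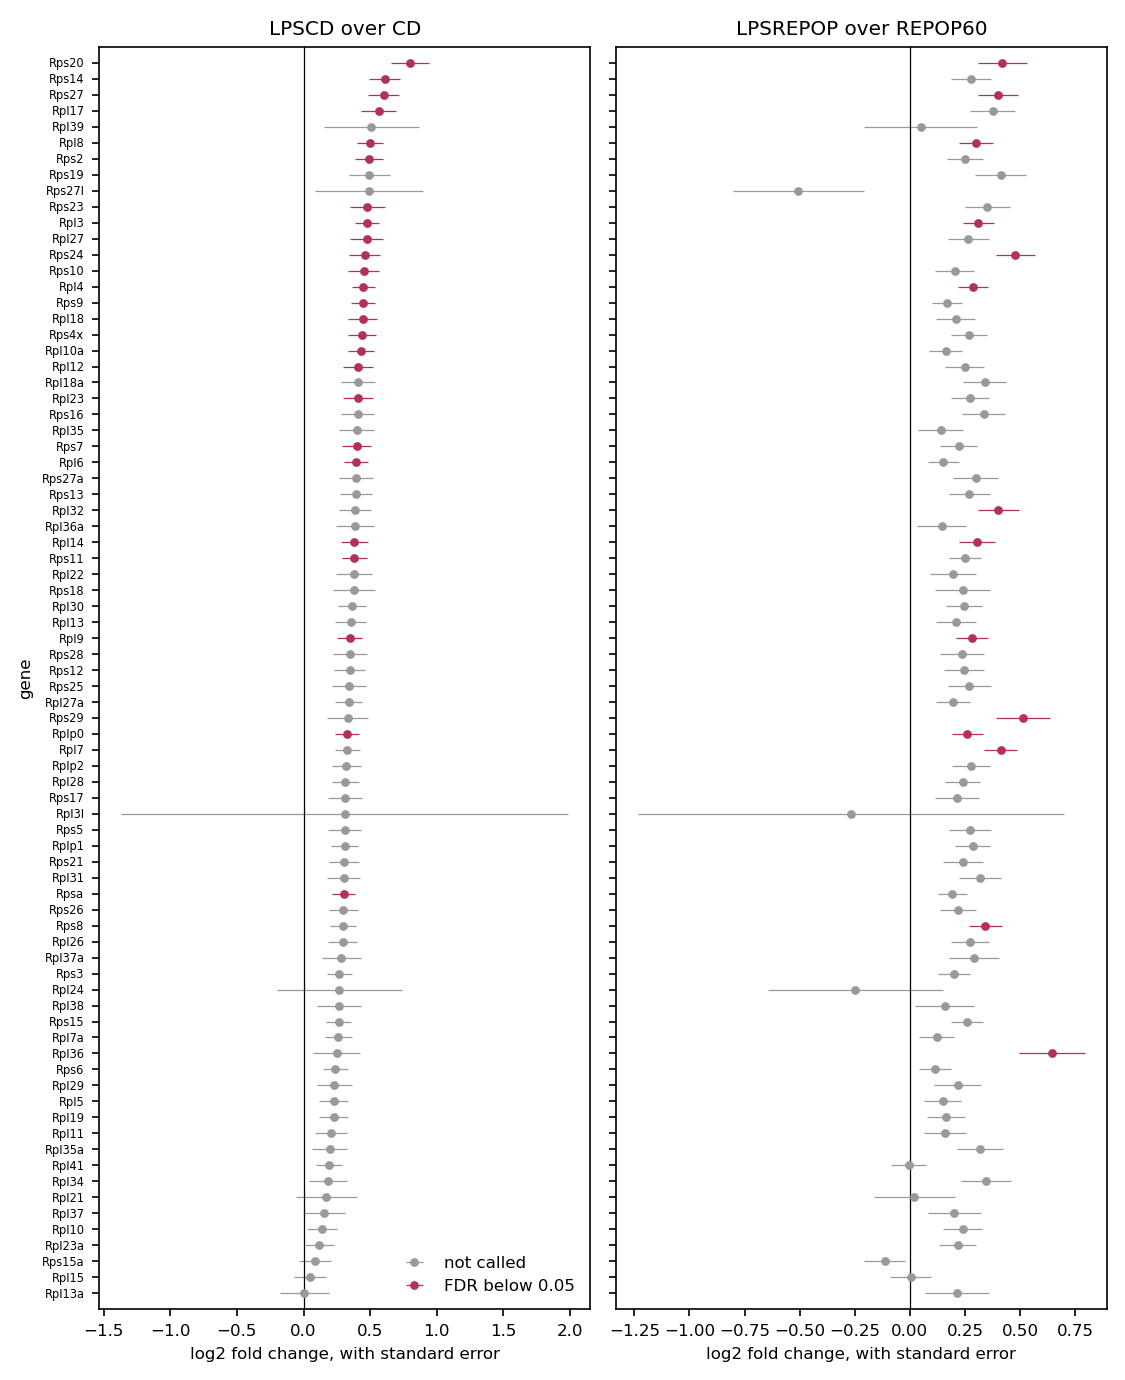
Log2 fold change (horizontal) of each of the 78 members (1 row per gene) with its standard error for LPSCD against CD and for LPSREPOP against REPOP60, with called members in color. All 78 lie above 0 in the first comparison (25 called) and 73 in the second (14 called).

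The number of called members, unlike the direction, moved with the mice. It was 1 without CD replicate 1 (0.0257% of all genes called in that fit), 1 without CD replicate 2M (0.139%), 46 without LPSCD replicate 1 (10.1%), 12 without LPSCD replicate 2 (1.02%) and 9 without LPSCD replicate 3 (0.623%). It was 0 with the leading character of the title number as a covariate, where 1 of all genes was called, while the median log2 fold change lay between 0.30 and 0.39 under all 16 settings. Among mice whose title number starts with 0, the mean level was 5.33 in the 1 CD mouse and 5.63 and 5.69 in the 2 LPSCD mice.

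LPSREPOP was compared with REPOP60 to ask the same with repopulated microglia, in mice that were not part of the comparison above, although in the same fit. The members were again higher as a group, with 73 of 78 above 0, 14 that rose (9 large, 5 small) and none that fell, against 1.69% of all genes called and 1.19% that rose. The median log2 fold change of the members was 0.25, and that of all genes was -0.0024. The mean level was 5.25, 5.23, 5.30 and 5.24 in REPOP60 and 5.33, 5.65, 5.45 and 5.48 in LPSREPOP. All 4 LPSREPOP mice were higher, and replicate 1 was the closest to REPOP60. Unlike the LPSCD mice, replicate 1 lay within the range of the 19 re mice without LPS (5.12 to 5.36). The other LPSREPOP mice lay above that range.

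Rpl7 had 68.5, 65.9, 64.9 and 64.2 CPM in REPOP60 and 81.4, 97.3, 85.5 and 86.9 CPM in LPSREPOP, a log2 fold change of 0.41 (SE 0.0748, adjusted p = 0.000961 with edgeR). Rps24 had 58.4, 46.4, 59.0 and 61.4 CPM in REPOP60 and 73.5, 86.4, 75.5 and 79.0 CPM in LPSREPOP, a log2 fold change of 0.48 (SE 0.0898). Rps29, a small zinc-binding protein of the 40S head, had 13.9, 14.3, 13.5 and 18.1 CPM in REPOP60 and 19.2, 22.3, 21.1 and 22.9 CPM in LPSREPOP, a log2 fold change of 0.51 (SE 0.123). In these 3 genes the groups did not overlap. Rpl32 had 38.7, 41.5, 41.2 and 35.7 CPM in REPOP60 and 43.9, 62.7, 49.2 and 52.3 CPM in LPSREPOP, a log2 fold change of 0.40 (SE 0.0937). Rpl36 had 8.33, 7.29, 8.32 and 7.78 CPM in REPOP60 and 10.7, 13.2, 12.6 and 13.3 CPM in LPSREPOP, a log2 fold change of 0.64. Its low level in REPOP60 was known when it was chosen, so this value is a description. In Rpl32 and Rpl36 too, every LPSREPOP mouse was above every REPOP60 mouse. All of these genes had a log2 fold change below 0 in REPOP60 against CD, with none called. It was -0.83 in Rpl36, -0.30 in Rps29, -0.20 in Rpl32, -0.12 in Rpl7 and -0.08 in Rps24. The LPSREPOP mice lay above both re CD mice in Rpl7, Rps24 and Rps29. In Rpl32 and Rpl36 they overlapped CD, and LPSREPOP against CD was not tested. The members below 0 in LPSREPOP against REPOP60 were Rps27l (log2 fold change -0.51), Rpl3l, Rpl24, Rps15a and Rpl41, none of them called.

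**Figure D4:**
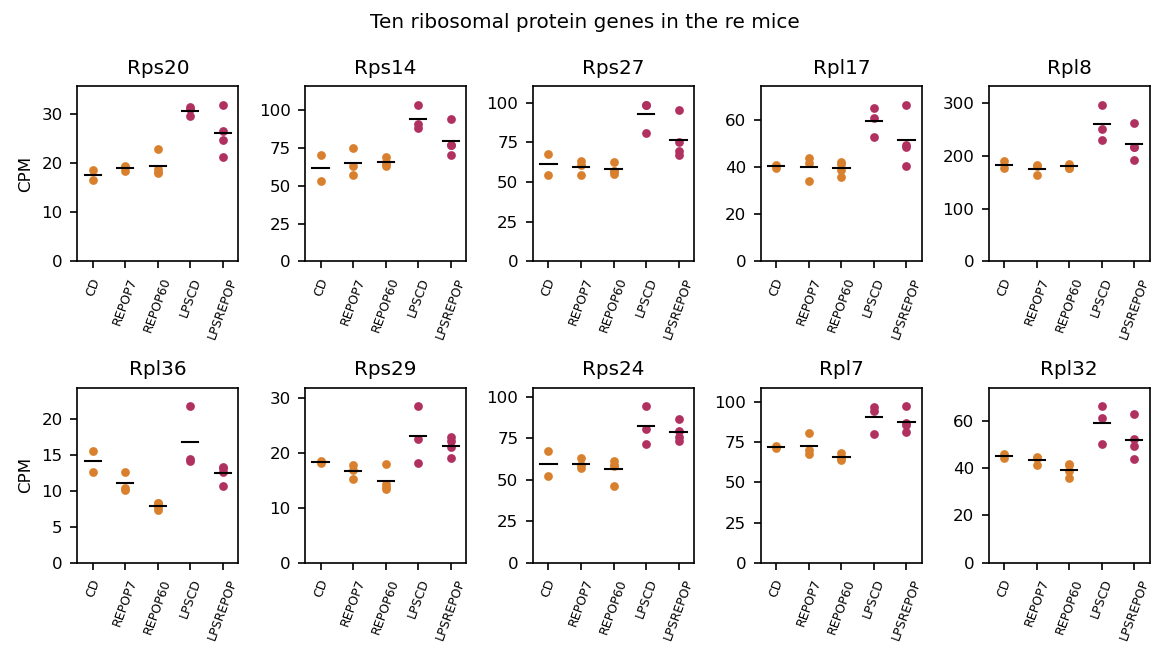
CPM (vertical, from 0) of 10 members in the 16 re mice of the groups with at least 2 such mice, 1 point per mouse and a line at the group mean. Rps20 stands at 16.6 and 18.7 CPM in CD and at 29.6 to 31.5 CPM in LPSCD, and Rpl7 at 64.2 to 68.5 CPM in REPOP60 and 81.4 to 97.3 CPM in LPSREPOP.

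Rpl14, Rpl3, Rpl4, Rpl8, Rpl9, Rplp0, Rps20, Rps24 and Rps27 (9 members) were called in both LPS comparisons, 36% of the 25 and 64.3% of the 14. Of all genes 149 rose in both (0.546% of those tested), 39.5% of the 377 that rose in LPSCD and 45.8% of the 325 that rose in LPSREPOP, and whether the overlap differs between the family and all genes was not tested. The count in LPSREPOP was 28 without LPSREPOP replicate 1 (1.61% of all genes called in that fit), 5 without LPSREPOP replicate 2 (1.03%), 5 without REPOP60 replicate 1 (0.876%), 5 without REPOP60 replicate 2 (0.939%), 9 without REPOP60 replicate 3 (0.942%) and 4 without REPOP60 replicate 4 (0.898%). It was 3 with the leading character of the title number as a covariate (0.392%), and the median stayed between 0.18 and 0.31 under all 19 settings.

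LPSREPOP against LPSCD asked whether repopulated and resident retinas differ under LPS. No member was called at an FDR under 0.05 with edgeR, while 0.55% of all genes were, and DESeq2 also called 0. The members leaned lower in LPSREPOP, with 72 of 78 below 0 and a median log2 fold change of -0.14. At an unadjusted p under 0.05, 19 were lower and none higher, against 5.98% of all genes that were lower. Rpl41, a very short protein of the large subunit, had the lowest adjusted p (0.0751) and was chosen for it after its values were seen. It had 52.6, 54.6 and 54.01 CPM in LPSCD and 43.7, 40.4, 42.6 and 47.4 CPM in LPSREPOP, without overlap. The count was 12 lower without LPSCD replicate 1, where 9.39% of all genes were called, and 9 lower without LPSREPOP replicate 2, where 2.38% were.

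Other genes of the translation apparatus were counted from fixed lists in the same fits. The background for these lists, and for the cell type markers below, is the share of all genes called. It was 2.43% (1.38% higher) in LPSCD against CD and 1.69% (1.19% higher) in LPSREPOP against REPOP60. Of 27 translation factors and other TOP mRNAs, 7 rose and none fell in LPSCD against CD, with Eif3f (log2 fold change 0.60), an initiation factor subunit, Eef2 (0.50), the translocation factor, Eif4b (0.43) and Pabpc1 (0.40), the poly-A binding protein, as the largest. Eif3f (0.37), Eef2 (0.34) and Eef1a1 (0.29), the factor that delivers aminoacyl-tRNA, were the 3 that rose in LPSREPOP against REPOP60. Rack1, a protein of the 40S subunit whose symbol is outside the rule, rose in both comparisons (0.45 and 0.38), the 1 gene called among 6 such genes. Of 38 ribosome biogenesis genes none was called in either, with medians of -0.0029 and -0.037. Among 78 mitochondrial ribosomal protein genes 1 fell in LPSCD (Mrpl17) and none was called in LPSREPOP. Among 77 respiratory chain genes 1 fell (Ndufb2) and none was called, respectively. The list of 16 mTORC1 genes had 1 call, Tsc1, a brake on mTORC1, which rose in LPSCD.

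Markers of cell types moved in the same comparisons. The 12 microglial markers summed to 64.5 and 61.7 CPM in CD and 115, 124 and 134 CPM in LPSCD, and 5 of them rose and none fell. C1qb (log2 fold change 2.48), C1qc (2.41) and C1qa (1.99), chains of complement C1q, and Ctss (1.72), a lysosomal protease, were the largest. In LPSREPOP the sum was 69.1 to 108 CPM, against 53.9 to 60.2 CPM in REPOP60. The 4 endothelial markers, of which Flt1 was the most abundant, summed to 145 and 159 CPM in CD and 194, 235 and 214 CPM in LPSCD, and 3 of them rose. In LPSREPOP they summed to 173 to 225 CPM, against 144 to 153 CPM in REPOP60, and all 4 rose. The 10 photoreceptor markers summed to 54415 and 57965 CPM in CD and 49282 to 52902 CPM in LPSCD, where Arr3 and Gnat1 fell. Their sum was 45023 to 55034 CPM in LPSREPOP and 55481 to 56932 CPM in REPOP60, with 1 marker called higher and 1 lower. For these 3 cell types the summed levels of the groups did not overlap in either comparison. The 12 markers of inner retinal neurons summed to 2784 and 2844 CPM in CD and 2617 to 2713 CPM in LPSCD, also without overlap, while LPSREPOP (2650 to 2775 CPM) and REPOP60 (2771 to 2896 CPM) overlapped. The 5 blood markers summed to 0.264 to 2.58 CPM in LPSREPOP and 3.97 to 6.30 CPM in REPOP60, while LPSCD (1.04 to 4.73 CPM) overlapped CD (3.503 and 5.59 CPM). The 6 markers of Mueller glia and astrocytes overlapped in both comparisons, at 2386 and 2417 CPM in CD and 1878 to 2636 CPM in LPSCD. None of the microglial or endothelial markers was at 0 in these groups. The part of all these cells in the values of the ribosomal protein genes was not tested, and in bulk RNA a change in the number of cells cannot be told apart from one in the RNA per cell.

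The depletion and repopulation groups were compared with CD in the 39 RE mice, 3 mice a group, to ask whether loss and return of microglia move the family. No member was called in any of the 12 comparisons, which share the 3 CD mice, and 0.0898% of all 26715 genes tested were called in at least 1. DESeq2 called none either. The median log2 fold change of the members ran from -0.01 (DEP5) to 0.18 (REPOP10). In REPOP10, 27 members had an unadjusted p under 0.05 and were higher and 1 was lower, against 5.76% and 5.67% of all genes. In REPOP21 there were 17 higher and 6 lower, against 5.03% and 6.3%, and 49 of the 78 members lay above 0. Fewer passed in the other groups, and those that did were higher. They were 10 in REPOP3 (5.74% of all genes in either direction), 9 in REPOP5 (4.53%), 9 in REPOP14 (3.38%) and 7 in DEP14 (3.78%). DEP21 had 2 (3.78%), and DEP2 (3.27%), DEP7 (3.83%) and DEP10 (4.53%) had 1 each. In DEP5 (2.77%) and REPOP7 (3.96%) there were 0. Above 0 were 64 members in REPOP3 and 73 in REPOP14, with medians of 0.18 and 0.15. By mouse, the mean level of the members was 5.55, 5.63 and 5.45 in CD. It was 5.60, 5.71 and 5.80 in REPOP3, 5.65, 5.91 and 5.64 in REPOP10 and 5.69, 5.53 and 5.89 in REPOP14. With the filter on low counts removed, 22 members were called in REPOP10 (20 higher) and 13 in REPOP21 (10 higher), and 23 in at least 1 comparison. In that fit 2.65% of all 33318 genes were called in REPOP10, 2.61% in REPOP21 and 4.05% in at least 1 comparison. In FPKM the members did not lean higher in REPOP10 or REPOP21. The median difference was -0.0037 in REPOP10 (36 members higher, 41 lower) and -0.11 in REPOP21 (22 higher, 55 lower). It was 0.032 in REPOP3 (48 higher, 29 lower) and 0.045 in REPOP14 (50 higher, 27 lower).

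Rpl14 had the lowest adjusted p of the members in these comparisons (0.151 with edgeR in REPOP10) and was chosen for it after its values were seen. It had 81.6, 85.2 and 65.9 CPM in CD and 111, 123 and 110 CPM in REPOP10, a log2 fold change of 0.56 (SE 0.140). The groups did not overlap, and the value did not pass the threshold over all genes. Photoreceptor markers summed to 46792 to 54206 CPM in these CD mice and 41433 to 49804 CPM in REPOP10. In REPOP21 they summed to 39764 to 45533 CPM, below each of these CD mice. The part of these markers in the results of both groups was not tested. Over the members, the log2 fold change against CD was also related to the GC content of the coding sequence. The Pearson r ran from -0.49 (REPOP5) to 0.0039 (DEP5) over the RE comparisons, with -0.42 in REPOP10 and -0.45 in REPOP21. These are descriptions across genes that share their libraries, and the part of GC content was not tested.

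Within the suffix re, REPOP7 and REPOP60 were set against the 2 CD mice. The labels call 1 of these CD_2M and the REPOP60 mice RP2M, while the meaning of 2M in CD is not given. A difference in time between the CD mice and REPOP60 therefore cannot be told apart from repopulation. No member was called in REPOP7 (0.0293% of all genes) or in REPOP60 (0% of all genes), 1 of the 78 members in each had an unadjusted p under 0.05 (Rpl12 higher in REPOP7 and Rpl36 lower in REPOP60), against 2.28% and 2.04% of all genes, and DESeq2 called none. The medians were -0.01 and -0.04. REPOP7 is the group with at least 2 mice of each suffix besides CD. Its difference from CD did not differ between the suffixes past the threshold in any of the 77 members tested (edgeR, interaction term). Of all 23585 genes in that fit 0 passed, so the result is not particular to the members. Rpl36, a protein of the large subunit, had 15.6 and 12.6 CPM in CD and 8.33, 7.29, 8.32 and 7.78 CPM in REPOP60, a log2 fold change of -0.83 (SE 0.175) that is given as a description. All 4 REPOP60 mice were below both CD mice. In REPOP7 it had 10.1, 10.4 and 12.7 CPM, in LPSCD 14.2, 21.7 and 14.4 CPM, and in the single re mice of other groups 5.35 CPM (DEP7) to 13.96 CPM (REPOP14). In FPKM it had 44.9 and 46.4 in CD and 32.1, 30.3, 35.4 and 29.3 in REPOP60.

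Most members followed the family's mean across the 39 RE mice. Each member's log2(CPM + 1) was correlated with the mean of the others, with a median Pearson r of 0.677 over the 78 members and 70 of them above 0, as a description over mice that share groups and sequencing depth. Between single pairs of members the median r was 0.374 and 76.5% of the pairs were positive. No such values were computed for other genes. Rpl32 (r = 0.873), Rps15 (0.860) and Rps9 (0.834) followed the others most closely. Rps29 (-0.357), Rps2 (-0.253) and Rpl34 (-0.229) ran against them.

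Most of the spread between mice lay between the title suffixes. That the suffixes differ over all genes was known when the comparison was made, so its counts are read against the background alone. In a fit of all 65 mice with group and suffix, 54 members were lower and 10 higher in re than in RE mice, at an FDR under 0.05 with edgeR, while 21.8% of the 28211 genes tested were lower and 23.7% higher. The median log2 fold change was -0.36 for the members and 0.04 for all genes. It was -0.43 for the 47 large subunit members (35 lower, 4 higher) and -0.26 for the 31 small subunit members (19 lower, 6 higher). By the study's own rule, which asks for an FDR under 0.01 and for a change of more than 1 on the log2 scale, 6 members were lower, against 3.31% of all genes in either direction. In each of the 12 groups with both suffixes the mean level was lower in re mice, by a difference from -0.45 (DEP7) to -0.25 (CD) with a mean of -0.36. Of the members 50 were lower in all 12, where most groups hold 1 re mouse. No such count was made over all genes, so this one is not read as a trait of the family.

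Rpl39, which lines the exit tunnel, changed most, with a lowest, median and highest of 3.61, 6.77 and 11.8 CPM in RE and 1.04, 2.34 and 3.04 CPM in re mice, a log2 fold change of -1.59 (SE 0.107). Rpl38, known for its part in the translation of Hox mRNAs, had 22.0, 30.6 and 44.4 CPM in RE and 9.12, 13.001 and 19.4 CPM in re mice (log2 fold change -1.27). Rps27a, made as a fusion with ubiquitin, had 42.3, 57.6 and 73.2 CPM in RE and 23.4, 27.1 and 37.0 CPM in re mice (log2 fold change -1.07, adjusted p = 4.95e-26 with edgeR). In these 3 genes no re mouse, with or without LPS, reached the lowest RE mouse. Rpl36 (log2 fold change -1.25), Rpl21 (-1.17) and Rpl31 (-1.14) were the other members of the study's rule. In the other direction, Rps29 had 4.53, 8.94 and 20.7 CPM in RE and 13.5, 17.7 and 28.6 CPM in re mice (log2 fold change 0.79, SE 0.122, adjusted p = 7.38e-08 with edgeR). Rps2, at the mRNA entry of the small subunit, had 24.0, 36.7 and 59.6 CPM in RE and 45.2, 53.8 and 82.0 CPM in re mice (log2 fold change 0.50). Both overlapped between the suffixes. Rpl18 (0.37) and Rplp1 (0.31) were also higher, and Rpl3l (0.39) was not called.

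The size of the difference went with base composition. Over the 78 members the log2 fold change between suffixes was related to the GC content of the coding sequence with a Pearson r of 0.543 and a Spearman correlation of 0.566, and over 11375 genes with a mean of at least 5 CPM with an r of 0.647, as descriptions across genes that share their libraries. The 6 members under 46% GC had a median of -0.79 (-0.39 for 1687 genes of that class), the 28 between 50 and 54% a median of -0.41 (-0.05 for 2552 genes) and the 7 at 58% or more a median of -0.04 (0.26 for 2377 genes). In each of the 5 classes the members were lower than the median of all genes. With transcript length the r over the members was 0.0735. An offset per library was also fitted, on the GC content of the whole transcript and not of the coding sequence, and was chosen after seeing the data. With it 59 members were lower and 5 higher with a median of -0.35, while 18.5% of all genes were lower and 21.1% higher in that fit. The coding sequence of Rpl39, the member with the largest drop, is shown from GENCODE M21 on GRCm38, with G and C in capitals. It belongs to the gene at chrX:37082520-37085402 (minus strand) and has 156 coding bases and 44.2% GC.
Rpl39: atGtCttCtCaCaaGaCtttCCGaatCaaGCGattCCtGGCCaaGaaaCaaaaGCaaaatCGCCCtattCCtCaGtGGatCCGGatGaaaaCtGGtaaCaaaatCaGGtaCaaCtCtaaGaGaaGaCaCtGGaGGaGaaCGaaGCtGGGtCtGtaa
The relation does not order single genes, since Rpl36 (chr17:56613416-56614243, plus strand, 318 coding bases) has 61.3% GC and was among the members with the largest drop.

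In FPKM the difference between the suffixes was small. The mean level differed by -0.0534 on the log2(FPKM + 1) scale over the 12 groups and was lower in re mice in 9 of them. With limma on log2(FPKM + 1), 25 members were higher and 29 lower, where 43.1% of all genes were called, and the median was -0.05. Rpl39 and Rps29 kept their directions, with medians of 13.8 FPKM in RE and 9.23 FPKM in re mice for Rpl39 and of 59.1 and 81.8 FPKM for Rps29.

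**Figure D5:**
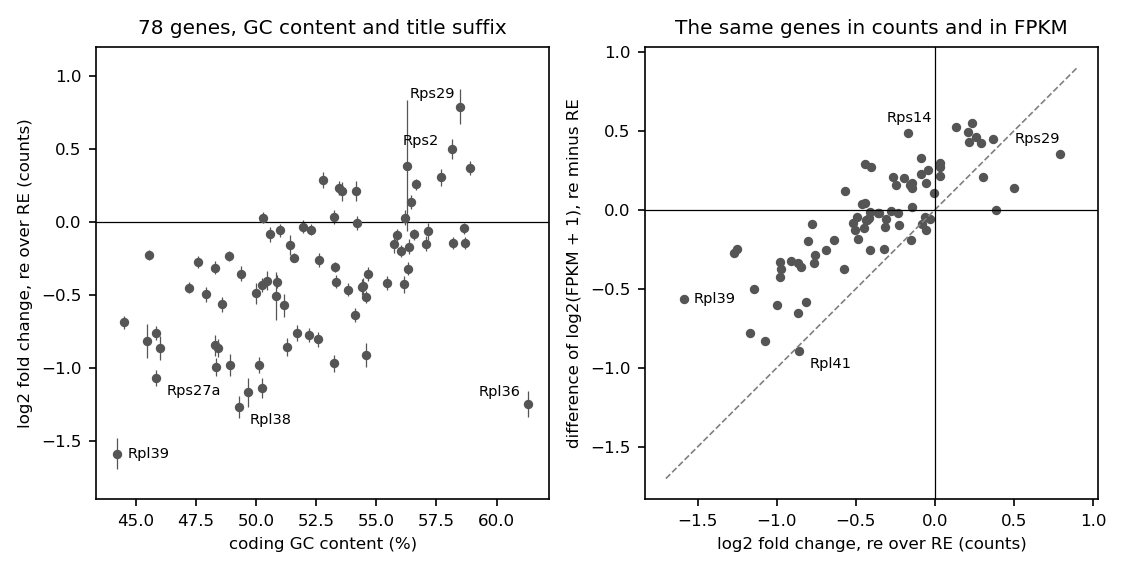
Left, log2 fold change of each of the 78 members in re over RE mice (vertical) against the GC content of its coding sequence in percent (horizontal). Right, the difference of log2(FPKM + 1) (vertical) against the log2 fold change from counts (horizontal) for the same genes, where 64 members lie below 0 in counts and 46 in FPKM.

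The lists fixed beside the family were counted in the same fit. Of all genes in it, 21.8% were lower and 23.7% higher in re mice, with a median log2 fold change of 0.04. Of 27 translation factors and other TOP mRNAs 20 were lower and 2 higher in re mice (median log2 fold change -0.37), with Npm1 (-0.90), a nucleolar chaperone, and Tpt1 (-0.84) among the largest. Among ribosomal protein genes outside the symbol rule, Rpl22l1 (-0.99), Fau (-0.60) and Rpl36al (-0.59) were lower. Of 77 respiratory chain genes 45 were lower and 15 higher (median -0.23), with Ndufs5 (-1.28) and Uqcrb (-1.21) lowest, and of 78 mitochondrial ribosomal protein genes 45 were lower and 16 higher (median -0.16). Of 38 ribosome biogenesis genes 23 were lower and 4 higher, and of 16 mTORC1 genes 4 were lower and 10 higher. Markers of cell types moved with the suffix too. The photoreceptor markers summed to 39764 to 58363 CPM (median 48063) in RE mice and 53950 to 58267 CPM (median 55761) in re mice without LPS, and were higher in re mice in all 12 groups with both suffixes, as were those of inner retinal neurons. The blood markers summed to 4.74 to 24.7 CPM (median 8.90) in RE and 1.91 to 9.13 CPM (median 5.06) in re mice, and were lower in re mice in all 12 groups, as were the endothelial markers. Of the 12 microglial markers 1 was lower and 1 higher, and their sum was lower in 3 of the 12 groups. The part of these cells in the suffix difference was not tested.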

How the data were processed

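The data are 65 retinal libraries, 1 per mouse, in 16 groups that the labels give. Per the submitters' processing notes, HISAT2 placed reads on mm10, HTSeq gave the deposited counts per gene, which are not normalized, and the authors made the deposited FPKM values with StringTie (versions not given in the sources used here). The labels describe poly-A selection. Totals were 5106429 to 8760443 counts (median 7944665) per mouse, and a floor of 3 counts is 0.342 to 0.587 CPM. Floors cover counting error only, not the spread between mice.

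Counts were fitted with edgeR 4.0.16 (TMM, quasi-likelihood F test) in R 4.3.3 over all genes that passed the filter, and called at a Benjamini-Hochberg FDR under 0.05. The 3 fits were all 65 mice with group and suffix, the 39 RE mice with group, and 16 re mice of the groups with at least 2 such mice. The study used an additive batch model but names no batch, so the suffix took its place. The standard error is the fold change divided by the square root of F. Levels are means of log2(CPM + 1). Identifiers were placed with GENCODE M21 (50462 of 50686), and sequences read with Python 3.11.15. The fits were tested on simulated data.

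The members and lists were chosen with earlier results of these data known. Named were Rpl36, the 5 members of largest and smallest fold change between suffixes, at most 5 called members without overlap per comparison, the 5 highest and 5 lowest in CD, the paralogs, and the 3 most and least correlated members; others are marked. Same-numbered mice were checked for correlated deviations over 12346 genes. Every pair exceeded 0.1 in DEP2 and CD alone (0.106 to 0.493), where the numbers come from the sample descriptions. Alternatives were DESeq2 1.42.0, RLE and other filters, the replicate block, title covariates, leaving out each mouse, and, chosen after seeing the data, a GC offset and limma 3.58.1 on log2(FPKM + 1). A few items are not reported here.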

Additional observations from a re-analysis of the deposited data

Results flagged for a closer look

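In groups of 4 re mice, 42 sets of values (the named members and the mean level of all 78) were searched for a mouse whose gap to the nearest other, as a share of the range, exceeded Dixon's 95% critical value for 4 samples. Chance alone is expected to mark about 1 set in 20, and 4 were found. Rps27a had 26.8 CPM in REPOP60 replicate 3, where the other mice had 23.4 to 23.8 CPM. Rps20 had 22.9 CPM in REPOP60 replicate 1, where the others had 18.1 to 18.9 CPM. Rpl21 had 7.003 CPM in LPSREPOP replicate 1, where the others had 5.41 to 5.54 CPM. Rpl35a had 22.7 CPM in LPSREPOP replicate 3, where the others had 26.2 to 26.8 CPM.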

How the results depend on the processing

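The direction of the median over the members held in every fit run for LPSCD against CD, LPSREPOP against REPOP60, LPSREPOP against LPSCD and re against RE mice. The counts of called members did not hold. For LPSCD against CD (25 called) the count was 45 with all 65 mice (6.43% of all genes called in that fit), 38 with no filter (4.47%), 14 with filterByExpr (1.32%), 2 with limma on FPKM (0.169%; chosen after seeing the data), 0 by the study's rule, 0 with the leading character of the title number, and 1 to 46 without 1 mouse. For LPSREPOP against REPOP60 (14 called) it was 28 with no filter (2.77%), 5 with all 65 mice (1.47%), 4 with limma on FPKM (0.528%), 3 with the leading character (0.392%), 0 by the study's rule, and 4 to 28 without 1 mouse. For LPSREPOP against LPSCD (0 called) it was 4 with no filter (3.16%) and 0 to 12 without 1 mouse. For re against RE mice (64 called) it was 6 by the study's rule, 30 in the 5 CD mice alone (12.6%) and 32 in the 6 REPOP7 mice alone (13.6%). The RE comparisons with CD (0 called) gave 23 with no filter (4.05%) and 0 to 0 without 1 mouse. REPOP60 against CD gave 1 with no filter (Rpl36; 0.035%) and otherwise 0, and REPOP7 gave 0 throughout. The mean level difference of re and RE mice was -0.0534 in FPKM, and Rps20 reversed to -0.0035 in FPKM in LPSCD against CD. The causes were not tested. Where a CD mouse was left out, the lone CD mouse was assumed to vary like the other groups.

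With the replicate block, 1 member was called in LPSCD against CD (0.191% of all genes), 1 in LPSREPOP against LPSCD (1.8%) and 22 in LPSREPOP against REPOP60 (2.46%). Same-numbered mice there shared a number only (mean r 0.0861 and 0.0243), and CD and LPSCD share 1 number within re. The block changed no other call, and none in DEP2 against CD. The 2 re CD mice and the 3 mice per RE group limit what these fits can call.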
